A study of Mus musculus with 7 samples.

Results

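An alternative 3' splice site is an intron end that competes with another one, so that the exon behind it begins at either of 2 positions. Events of this kind were followed in RNA of mouse cortical neurons a day after a brief depolarization. The events taken were those listed with this type in the tables of both replicate numbers, with exon coordinates that occurred once in each table. There were 1368 of them in 1180 genes, 11.6% of the 11814 events of 5 types that met the same condition on coordinates. The rule set no condition on the read counts or on the comparison of KCl with control. All 1368 events had at least 1 read of each form over the libraries, so being listed may itself depend on reads.

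The neurons were primary cultures from the cortex of ICR mouse embryos at day 16 and were treated at day 11 in culture. In the KCl group they were exposed for 10 min to a depolarizing buffer that brought KCl to 50 mM. The control group received a buffer with NaCl in place of KCl for the same time, and both were harvested 24 h later. There were 2 libraries per group, and no allele or drug is named for either group. The labels do not say whether the libraries came from separate cultures, so the spread behind each p-value is that between these libraries and may be technical. Primary cultures of this kind keep some glial and other dividing cells beside the neurons.

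The end of an intron is read in 2 steps. The U2AF heterodimer binds the pyrimidine-rich tract and the AG at the intron end, SF1 binds the branch point, and the U2 snRNP then replaces SF1. In the second step of splicing, factors such as Slu7 and Prpf18 help to position the AG at which the exons are joined. Where AGs lie close together, either can be used, and AGs separated by 3 bases add or leave out a single codon. Proteins such as Ptbp1, Ptbp2, the Rbfox family and the Celf family bind near intron ends and shift the choice, and neurons are known for a splicing programme of their own.

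The bases around the intron end could be read for 3 of the events, since these lay in RefSeq promoter windows of the build GRCm38.p6. They are shown because the bases on both sides of the AG are what the choice acts on. Each line gives the last 20 bases of the intron and the first 6 of the exon, 5' to 3' along the gene, with the AG at the intron end in capitals. The spans are chr13:83662287-83662312 (+) for Mef2c, chr4:41520393-41520418 (-) for Fam219a and chr3:95282900-95282925 (+) for Fam63a.
Mef2c: ggtttcctttcctcctacAGagcttg
Fam219a: gacacgaaccttttctacAGcagatc
Fam63a: ccctgctttcttggctccAGagcaga
All 3 listed exons began right after an AG, a dinucleotide that made up 7.56% of the dinucleotides in 32851 windows of 300 bases. Of the 18 intron bases before the AG, 15 were pyrimidines in Mef2c, 11 in Fam219a and 15 in Fam63a. A further AG followed inside the exon of each. It ended 3 bases on in Fam219a, as CAG, and 2 bases on in Mef2c and Fam63a. An AG was present in 33.8% of all stretches of 6 bases in the windows, searched on both strands, so the motif alone does not show that the second AG is used.

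Reads of these events are counts of an inclusion form and of a skipping form, and the inclusion read share is the percentage of their sum that inclusion reads make up. Effective lengths of the forms are not given, so the share is no percent spliced in and is compared between libraries for the same event. The tables list 1 exon per event and do not state which of the competing acceptors belongs to the inclusion form. In Mef2c, a transcription factor of activity-dependent gene programmes, 9 of 19 and 106 of 174 reads were inclusion reads in KCl, against 274 of 449 and 457 of 630 in control. The shares were 47.4% and 60.9% in KCl and 61.0% and 72.5% in control, and the KCl libraries were the lowest and the second lowest, just below the control range. The log2 odds ratio was -0.66 (SE 0.69, adjusted p = 0.899, edgeR). Fam219a had shares of 81.8% and 67.4% in KCl and 83.7% and 75.3% in control, and Fam63a had 93.8% and 95.3% in KCl and 92.9% and 100% in control. The groups overlapped in Fam219a and Fam63a.

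Reads of all events came to 3643165 and 4666850 in KCl and 3566066 and 5385345 in control. The alternative 3' splice sites held 178104 and 210965 of them in KCl and 163423 and 228515 in control, between 4.24% and 4.89% of a library. Their median depth was 43 and 61.5 reads per event in KCl and 44 and 66 in control. The label of the culture was checked with 15 neuronal markers, of which 9 had events in the tables. All 9 were lower in KCl, and their summed level was 2275 and 7151 CPM (read counts scaled to a common library size) in KCl, against 25166 and 21423 CPM in control. Each marker was read from its best covered event, and single genes weigh heavily in the sums. Gap43 alone had 1408 and 4334 CPM in KCl and 17038.5 and 13268 CPM in control. Of the glial and other markers, all 5 measured for the oligodendrocyte lineage were higher in KCl (1997 and 1094 CPM summed in KCl, 317 and 341 CPM in control). The same held for all 3 vascular and mesenchymal markers (2902 and 2240 CPM in KCl, 431 and 517 CPM in control), where Tagln alone had 2750 and 2128 CPM in KCl and 405 and 472 CPM in control. All 5 astrocyte markers (4134 and 3060 CPM in KCl, 2977 and 2308 CPM in control) and all 4 markers of dividing progenitors were also higher in KCl on average. The groups overlapped in the astrocyte markers Aldoc and Slc1a2 and in the progenitor markers Mki67 and Top2a. None of the 7 microglial markers was in the tables. None of these markers passed edgeR's adjusted threshold. At an unadjusted p under 0.05 were 6 of the 9 neuronal, 4 of the 5 oligodendrocyte, 2 of the 3 vascular and mesenchymal, 2 of the 5 astrocyte and 1 of the 4 progenitor markers, against 12.2% of all genes. Replicate 1 of KCl had the lowest neuronal markers of the 4 libraries, and the part of these marker levels in the splicing values below was not tested. In bulk RNA, fewer cells of a type and less RNA per cell cannot be told apart.

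The shares of alternative 3' splice sites were spread over the whole range, with many events near either end. Over the 1104 events with a mean of at least 20 reads, the median share was 75.5% and 75.4% in KCl and 77.8% and 75.4% in control. A share over 90% was measured in 388 and 387 events in KCl and in 393 and 379 in control. A share under 10% was measured in 174 and 175 events in KCl and in 184 and 170 in control. The remaining 542 and 542 events in KCl and 527 and 555 in control used both forms at 10% or more. The libraries differed little in this distribution, and the group with the wider gap between its 2 medians was control.

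**Figure D1:**
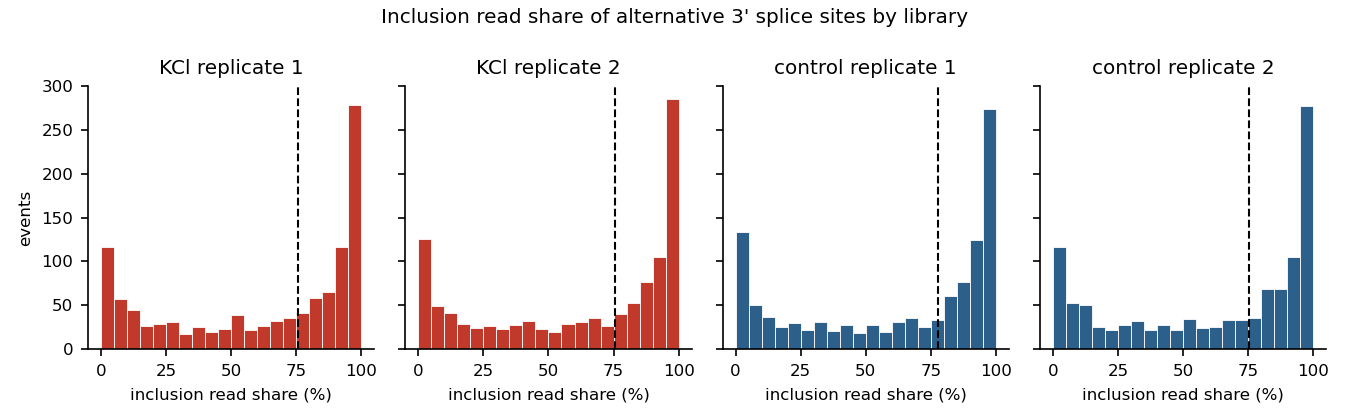
Inclusion read share (%, horizontal axis) of the 1104 alternative 3' splice sites with a mean of at least 20 reads, as the number of events per step (vertical axis), in each KCl and each control library. The dashed line is the library's median, 75.5% and 75.4% in KCl and 77.8% and 75.4% in control, and events gather near 100% and, less so, near 0% in all 4 libraries.

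Among the types of event, alternative 3' splice sites stood between cassette exons and alternative 5' splice sites in their median share. Cassette exons had medians of 96.8% and 96.6% in KCl and 96.6% and 96.3% in control. Alternative 5' splice sites had 62.6% and 62.5% in KCl and 63.9% and 64.7% in control, and retained introns had 31.3% and 30.4% in KCl and 25.6% and 31.8% in control. These are descriptions across types with different forms, and they were not tested.

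Most listed exons were of common length, with a median of 176 bases and a range from 22 to 8154 bases, and 90 were longer than 1000 bases. Of the 1180 genes, 1159 are annotated as protein coding. Along the gene the events leaned to its end, and the place of other types of event was not measured for comparison. For the 1153 events with a known place, the median lay at 67.6% of the gene's length from its start, with 123 events in the first 25%, 229 between 25% and 50%, 344 between 50% and 75% and 457 in the last 25%. The share differed with neither of these features in a steady way. In the 281 events with exons of 22 to 135 bases the median share was 77.8% and 75.6% in KCl and 76.9% and 75.5% in control. In the 276 events with exons of 260 bases or more it was 82.0% and 84.4% in KCl and 84.9% and 82.8% in control, and the 2 classes of length between them had medians from 68.9% to 72.9%.

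Most genes had a single event of this type. There were 1021 such genes, while 134 had 2, 21 had 3 and 4 had 4 events, the last being Eif4g1, Ncor1, Prdm16 and Surf1. In Ncor1, a nuclear receptor corepressor, the events with the highest and the lowest shares are given. The exon chr11:62327106-62327249 had 79.3% and 76.4% in KCl and 74.8% and 74.7% in control, and the exon chr11:62384718-62384845 had 29.0% and 26.8% in KCl and 18.2% and 31.4% in control. In Eif4g1, a scaffold of translation initiation, chr16:20681734-20681922 had 35.1% and 35.5% in KCl and 34.0% and 28.6% in control, while chr16:20675730-20675829 had 98.4% and 95.6% in KCl and 95.6% and 96.6% in control. In Surf1, an assembly factor of cytochrome c oxidase, all 4 events had shares of 27.3% or less in every library. In Prdm16, a transcription factor with a zinc finger array, chr4:154337643-154337730 had 84.2% and 80.5% in KCl (38 and 41 reads) and 60% and 61.3% in control (10 and 31 reads). Its log2 odds ratio was 1.58 (SE 0.95, adjusted p = 0.680, edgeR). At chr4:154367178-154367315 the groups overlapped, with 0% and 80% in KCl (3 and 10 reads) and 70% and 50% in control (10 and 6 reads). The remaining events of Prdm16 had higher shares in KCl, from 32 or fewer reads per library. In Ncor1 and Eif4g1 the shares are given event by event, and differences between events of a gene were not tested.

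The competing acceptor is not listed in the tables. For 231 events another exon of the same gene in the tables shared the downstream end and began further in, which gives a candidate for it, and 224 of these had a single candidate. The candidate lay 2 to 3779 bases downstream, with a median of 26.5 bases. The most frequent distance was 3 bases, with 45 events, and 68 events had a distance under 12 bases. The distance was a multiple of 3, which keeps the reading frame where the exon is coding, in 126 events (56.3%), the 45 at 3 bases among them, and in 98 events it was not.

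Events with candidates 3 bases apart mostly used both forms, and 31 of the 38 with a mean of at least 20 reads had a mean share between 10% and 90% in control. Their median share was 72.7% and 73.4% in KCl and 71.7% and 70.3% in control. The best covered of them was in Nucks1, which codes for a chromatin-associated nuclear phosphoprotein (chr1:131929613-131929762), with 77.9% and 81.3% in KCl and 85.4% and 78.5% in control. Srsf10, an SR-related splicing factor (chr4:135863523-135863576), had 72.4% and 77.9% in KCl and 74.5% and 77.9% in control. Cic, a transcriptional repressor (chr7:25291052-25291342), had 45.9% and 39.5% in KCl and 40.7% and 42.3% in control. Eif4g3, a relative of Eif4g1 (chr4:138120346-138120454), had 73.0% and 72.8% in KCl and 72.4% and 75.8% in control. The groups overlapped in all 4 of these genes. Dram2, a lysosomal membrane protein (chr3:106555164-106555308), had 92.2% and 88.3% in KCl and 78.1% and 83.4% in control, without overlap. Its log2 odds ratio was 1.10 (SE 0.68, adjusted p = 0.696, edgeR).

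Between KCl and control, the difference in share had a median of 0.25 percentage points over the 38 events at 3 bases, with 20 higher and 18 lower in KCl. Over the 68 events with a longer distance that was a multiple of 3, the median difference was -0.59 points, with 28 higher and 40 lower. The library medians of this class were further apart, 60.2% and 62.5% in KCl and 78.0% and 77.5% in control, and a gap between medians over events is not the median of the differences within events. In 6 of the 66 tested among them the unadjusted p of edgeR was under 0.05, against 9.2% of all events tested and 3.70% of the alternative 3' splice sites tested. These 6 were Kif1b, Strn4, Crlf2, Dlgap4 and Phc1, lower in KCl, and Sys1, higher in KCl. Over the 80 events with a distance that was not a multiple of 3 the median difference was 0.69 points, with 48 higher and 32 lower, and the library medians were 85.7% and 86.7% in KCl and 85.7% and 82.2% in control. Neither the 38 nor the 80 held an event with an unadjusted p under 0.05. Over all 1104 events the median difference was 0.12 points, with 569 higher and 535 lower. The differences between the 3 classes were not tested.

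**Figure D2:**
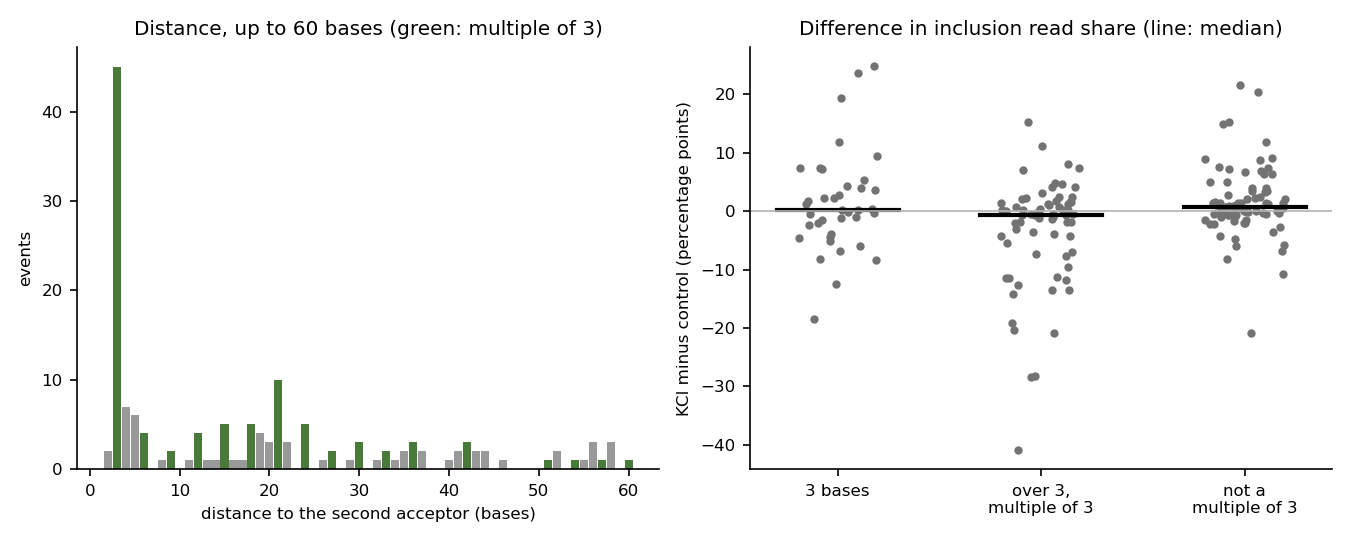
Left, number of alternative 3' splice sites (vertical axis) by the distance in bases to the single candidate second acceptor, up to 60 bases (horizontal axis), with multiples of 3 in green; the tallest bar, 45 events, is at 3 bases. Right, the inclusion read share in KCl minus control in percentage points for each event with a mean of at least 20 reads, in 3 classes of distance, with the median as a line (0.25, -0.59 and 0.69); the 3 lowest points are all in the middle class.

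Whether a brief depolarization shifts 3' splice site choice a day later was asked first over all events. The library medians averaged 75.5% ± 0.12 in KCl and 76.6% ± 1.71 in control (SD, n = 2 each), a difference of -1.18 points. This was smaller than the spread between the control libraries, and the two-sided exact permutation test gave p = 0.667, where the smallest p that 2 against 2 libraries allow is 0.3333. Without replicate 1 of control the difference was 0.024 points. Event by event, the mean share differed between the groups by at least 10 points in 150 of 1104 events, 72 higher and 78 lower in KCl. The 2 KCl libraries differed from each other by as much in 224 events, and the 2 control libraries in 215. A difference of at least 25 points between the groups was measured in 15 events, 9 higher and 6 lower, against 41 between the KCl libraries and 25 between the control libraries. A mean of 2 libraries varies less than a single library. Fewer events between the groups than within them would therefore be counted even without any effect, and these counts do not rank the 2 kinds of difference.

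Of the 1368 events, 1243 averaged 1 or more reads in each form. edgeR's quasi-likelihood test was run on them together with the other types, with adjustment over 10088 events. No alternative 3' splice site passed an adjusted p of 0.05, against 0.0% of all events tested. DESeq2 and limma on the log2 odds also called 0. On simulated data with a spread between libraries near that fitted here, edgeR recovered 0% of changes of 1.5 in log2 odds and 31.6% of changes of 3. The absence of calls thus does not show that the shares were unchanged. At an unadjusted p under 0.05 edgeR gave 46 events, 22 higher and 24 lower in KCl, which is 3.70% of those tested, against 9.2% of all events. Evenly spread p-values, without any effect, would give 62.15 of the 1243 on average, so 46 is no excess. In all events 4.23% were higher and 4.97% lower in KCl at that threshold. DESeq2 gave 29 and limma 71 alternative 3' splice sites at an unadjusted p under 0.05, and their percentages over all events are not given. Groups whose shares did not overlap were found in 468 events (37.7%), 239 higher and 229 lower in KCl, against 40.7% of all events tested (21.2% higher and 19.5% lower). The counts of edgeR at the unadjusted threshold were thus below the background of all events in both directions. Alternative 5' splice sites were at 3.57%, retained introns at 3.95%, mutually exclusive exons at 6.79% and cassette exons at 12.4%, and these differences between types were not tested.

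**Figure D3:**
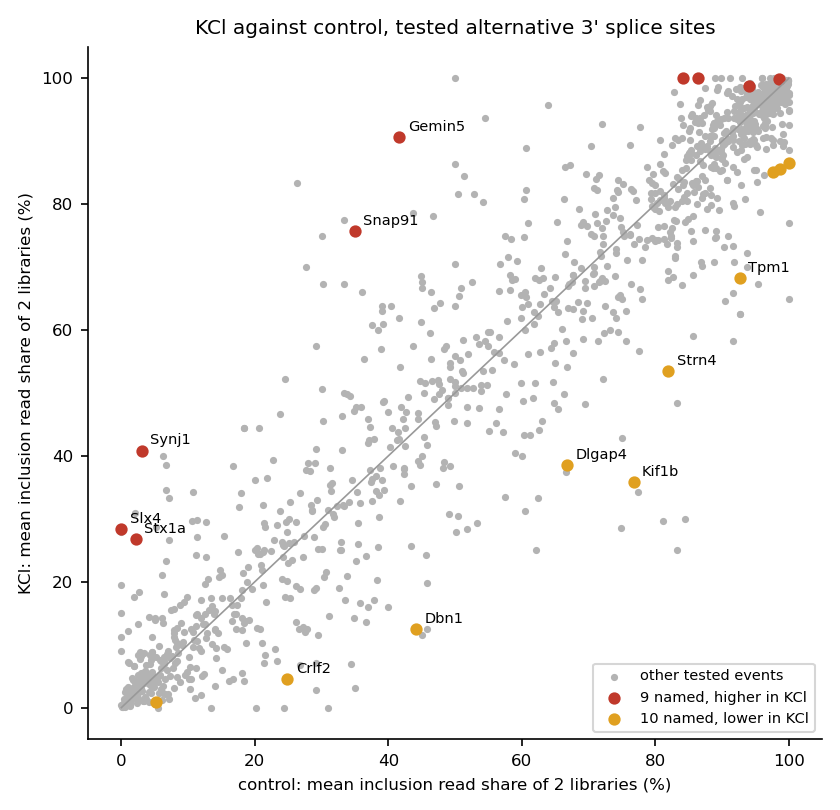
Mean inclusion read share of the 2 KCl libraries (vertical axis, %) against that of the 2 control libraries (horizontal axis, %) for the 1243 tested alternative 3' splice sites, with 19 named events in colour and the line of equality. Most points lie along the line; Synj1, Snap91 and Gemin5 lie above it, and Kif1b, Dbn1, Strn4 and Dlgap4 below it.

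The events with the smallest p whose groups did not overlap are described next, 9 with higher and 10 with lower shares in KCl, and none of them passed the adjusted threshold. Those with a higher share in KCl included 3 genes of synaptic signalling. Synj1 codes for synaptojanin 1, a lipid phosphatase that sheds the clathrin coat from retrieved synaptic vesicles. Its exon chr16:90973910-90974075 had 30 inclusion reads of 59 and 37 of 120 in KCl, against 5 of 138 and 6 of 239 in control. The shares were 50.8% (95% Wilson interval 38.4 to 63.2) and 30.8% (23.3 to 39.6) in KCl and 3.62% (1.56 to 8.20) and 2.51% (1.16 to 5.37) in control, where intervals cover counting error only. Both KCl libraries lay far above both control libraries, with replicate 1 the higher. The log2 odds ratio was 4.40 (SE 0.77, adjusted p = 0.0977, edgeR), the smallest adjusted p of the type. Without replicate 1 of KCl it was 3.84. A second event of Synj1, at a 24-base exon, had only 3 and 6 reads in KCl and 13 and 6 in control.

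Snap91 codes for AP180, which assembles clathrin on synaptic vesicle membrane. At chr9:86781570-86781719, 61 of 68 and 134 of 217 reads were inclusion reads in KCl, against 143 of 496 and 235 of 572 in control. The shares were 89.7% and 61.8% in KCl and 28.8% and 41.1% in control, and both KCl libraries lay above both control libraries. The log2 odds ratio was 2.54 (SE 0.76, adjusted p = 0.224, edgeR), 1.60 without replicate 1 of KCl and 4.01 without replicate 2 of KCl. Stx1a codes for syntaxin 1A, a SNARE of the presynaptic plasma membrane. At chr5:135048911-135049104 its inclusion reads were 10 of 23 and 12 of 120 in KCl, against 4 of 264 and 11 of 380 in control. The shares were 43.5% (Wilson interval 25.6 to 63.2) and 10.0% (5.81 to 16.7) in KCl and 1.52% (0.591 to 3.83) and 2.89% (1.62 to 5.11) in control. The higher KCl value rests on 23 reads. The log2 odds ratio was 3.42 (SE 0.90, adjusted p = 0.149, edgeR), and 2.27 without replicate 1 of KCl.

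Gpm6b, a membrane glycoprotein of the proteolipid family found in neurons and oligodendrocytes, was the best covered event of all, with up to 13910 reads in a library. Its exon chrX:166385391-166388988 had 99.3% and 98.2% in KCl and 93.3% and 94.9% in control. Skipping reads were 80 of 11785 and 251 of 13910 in KCl, against 336 of 5007 and 525 of 10223 in control. In edgeR the log2 odds ratio was 2.46 (SE 0.72, adjusted p = 0.209, edgeR), and 1.76 without replicate 1 of KCl.

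Slx4, a scaffold of nucleases that resolve DNA structures, had 6 inclusion reads of 15 and 5 of 30 in KCl at chr16:3984991-3987181, and 0 of 27 and 0 of 45 in control. Counts of 0 there allow shares of up to 11.1% and 6.67%, and the KCl shares were 40.0% and 16.7%. The Wilson interval was 19.8 to 64.3 for the first KCl share. For the second it was 7.34 to 33.6, which reaches below the limit of 11.1%. The remaining events with higher shares had either nearly full inclusion or few reads. Mtmr12, a catalytically inactive myotubularin, had 100% in both KCl libraries (17 and 37 reads) and 88.9% and 84.0% in control. Fbxl4, a mitochondrial F-box protein, had 100% in both KCl libraries (15 and 28 reads) and 93.3% and 75% in control. Sys1, a Golgi membrane protein, had 99.8% and 100% in KCl and 99.3% and 97.9% in control. Gemin5, which binds snRNAs in the SMN complex, had 7 of 8 and 15 of 16 inclusion reads in KCl and 2 of 4 and 3 of 9 in control. At these depths the single shares of Gemin5 are loose, with a Wilson interval of 15.0 to 85.0 for the first control library.

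Among the events with lower shares in KCl were motor, cytoskeletal and scaffold genes. Kif1b codes for a kinesin that carries mitochondria and synaptic vesicle precursors along axons. Its exon chr4:149257870-149258081, with a candidate second acceptor 78 bases downstream, had 57 of 190 and 197 of 472 inclusion reads in KCl, against 202 of 266 and 579 of 746 in control. The shares were 30.0% and 41.7% in KCl and 75.9% and 77.6% in control, and both KCl libraries lay far below the control libraries, which were close together. edgeR gave a log2 odds ratio of -2.56 (SE 0.64, adjusted p = 0.144, edgeR), and -2.21 without replicate 1 of KCl. Tpm1 codes for a tropomyosin, which winds along actin filaments. Its listed exon of 1973 bases, chr9:67022593-67024565, had 63.4% and 73.3% in KCl and 94.8% and 90.5% in control. This was a log2 odds ratio of -2.58 (SE 0.68, adjusted p = 0.149, edgeR), and -2.25 without replicate 1 of KCl.

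Dbn1 codes for drebrin, an actin-binding protein of dendritic spines. At chr13:55476146-55476773, 42 of 836 and 168 of 840 reads were inclusion reads in KCl, against 633 of 1405 and 511 of 1178 in control. The shares were 5.02% and 20% in KCl and 45.1% and 43.4% in control. The fitted log2 odds ratio was -2.74 (SE 0.76, adjusted p = 0.179, edgeR), and -1.66 without replicate 1 of KCl. The KCl libraries differed from each other beyond counting error, and both lay below control. The other alternative 3' splice site of Dbn1, chr13:55474456-55474561, had 33.0% and 31.9% in KCl and 40.2% and 31.5% in control, with overlapping groups.

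Strn4, a striatin that links a phosphatase to signalling complexes, had 46.7% and 60.2% in KCl and 82.6% and 81.4% in control at chr7:16831465-16831580, with a candidate acceptor 21 bases on. Its log2 odds ratio was -1.95 (SE 0.64, adjusted p = 0.298, edgeR). Dlgap4, a scaffold of the postsynaptic density, had 40.0% and 37.0% in KCl and 72.5% and 61.1% in control at chr2:156748023-156748420, with a candidate 309 bases on. Its log2 odds ratio was -1.68 (SE 0.63, adjusted p = 0.398, edgeR), and -1.76 without replicate 1 of KCl. In Dlgap4 the KCl libraries were closer together than the control libraries. Rufy2, an endosomal protein with RUN and FYVE domains, had 76.1% and 94.3% in KCl and 97.1% and 98.2% in control at chr10:63002946-63004776. Its value of -2.52 was -1.36 without replicate 1 of KCl, so that library carried much of the difference.

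The other 4 events with lower shares had few reads of one form. Crlf2, a subunit of a cytokine receptor, had 3 of 83 and 2 of 36 inclusion reads in KCl and 17 of 97 and 10 of 31 in control, with a candidate 33 bases on. Phc1, a Polycomb protein, had 89.7% and 83.3% in KCl and 100% in both control libraries (19 and 36 reads), with a candidate 24 bases on. Sgpl1, sphingosine-1-phosphate lyase, had 0.556% and 1.24% in KCl and 1.67% and 8.77% in control. The gene BC037034 had 81.0% and 90.3% in KCl and 100% and 97.5% in control. Of the 20 events that the rule took, replicate 1 of KCl lay further from control than replicate 2 in 14, replicate 2 in 4, and both equally in 2. Over all 468 tested events without overlap these numbers were 249, 192 and 27. Replicate 1 of KCl was also the library with the lowest neuronal markers, 2275 CPM in sum, and its part in the shares was not tested.

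**Figure D4:**
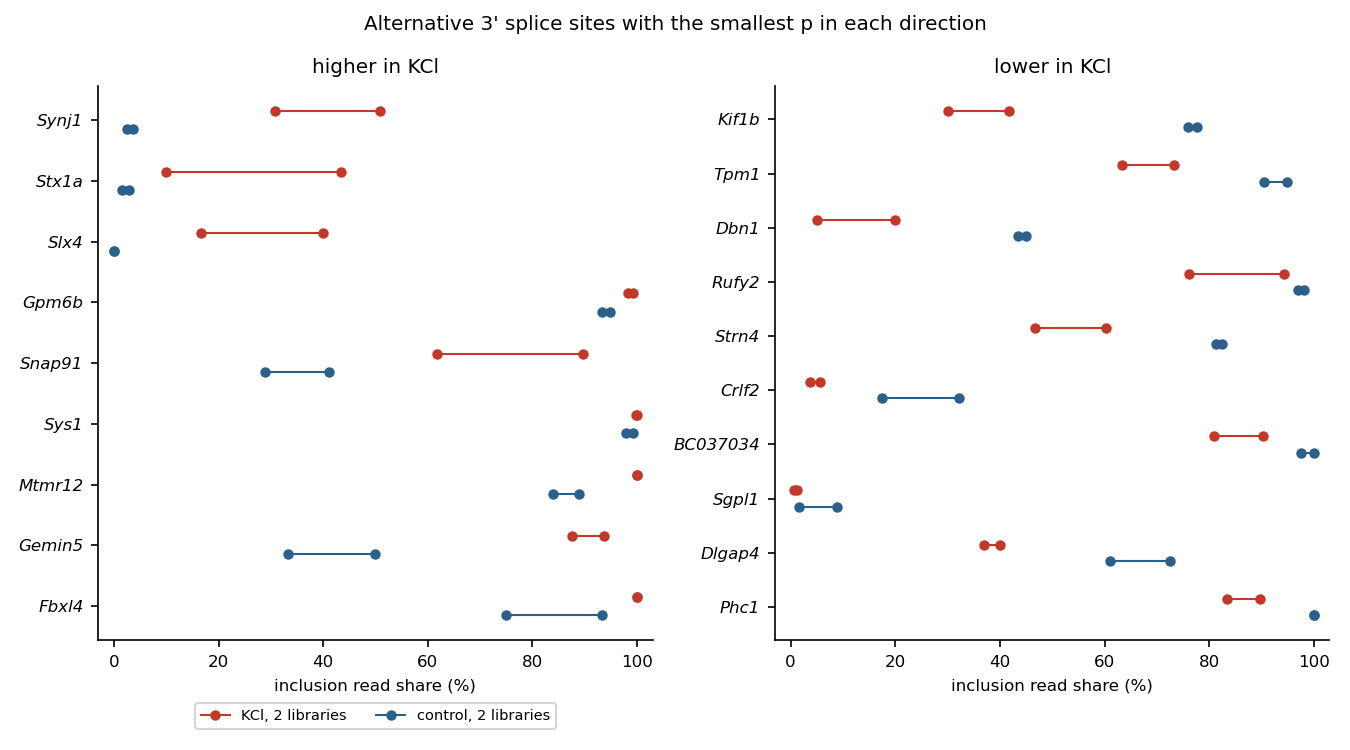
Inclusion read share (%, horizontal axis) of 19 named alternative 3' splice sites in each library, KCl above control in each row; points are libraries and the line joins the 2 libraries of a group. The groups do not overlap in any row, by the rule that chose them, and KCl libraries are often further apart (Stx1a, Snap91) than control libraries.

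Of the 15 events with a difference of at least 25 points, 7 have been described, and a further 7 are given here because of that size, seen after the fact. Nptn, which codes for the synaptic adhesion protein neuroplastin, had 88% and 81.0% in KCl (25 and 21 reads) and 50% and 52.8% in control (28 and 36 reads). Depdc5, a subunit of the GATOR1 complex that restrains mTORC1, had 12.5% and 44.4% in KCl (8 and 36 reads) and 76.9% and 72.9% in control (13 and 48 reads). Ncoa3, a nuclear receptor coactivator, had 66.7% and 68.1% in KCl and 14.3% and 46.3% in control, the lowest from 7 reads. Dclk1, a microtubule-binding kinase, had 64% and 24.8% in KCl and 14.1% and 22.8% in control, so that replicate 2 of KCl lay just above control. Ttc14, with tetratricopeptide repeats, had 80% and 83.3% in KCl and 69.2% and 31.8% in control, and here the control libraries were far apart. In Syt3, a synaptotagmin, and Dync1i1, a dynein intermediate chain, the groups overlapped, and replicate 1 of KCl held only 6 and 4 reads. The smallest unadjusted p of these 7 was 0.0257, for Nptn (edgeR).

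The events with the most reads apart from Gpm6b differed little between KCl and control. Gnai2, an inhibitory G protein subunit, had 98.4% and 97.8% in KCl and 98.7% and 98.2% in control. Celf1, an RNA-binding splicing regulator, had 96.4% and 97.8% in KCl and 99.1% and 98.3% in control at its 6000-base exon, with a log2 odds ratio of -1.17 (SE 0.70, adjusted p = 0.670, edgeR). Snrnp70, a protein of the U1 snRNP, had 97.9% and 96.3% in KCl and 97.5% and 97.0% in control. Ftl1, the ferritin light chain, had 5 inclusion reads of 7949 and 5 of 3797 in KCl and 6 of 3668 and 6 of 2625 in control. Ftl1 has near-identical copies in the genome, so its counts are uncertain.

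Lists of synaptic, channel, adhesion and splicing genes gave few events at the unadjusted threshold, and none passed the adjusted one. The lists were chosen with earlier results of these data known. Their counts and medians beside the background are thus descriptions and do not test a shift. Of 44 synaptic vesicle and membrane traffic genes, 9 had an alternative 3' splice site, with 9 tested events. Among them 2 had an unadjusted p under 0.05, Synj1 and Snap91, both higher in KCl, against 9.2% of all events tested. Groups did not overlap in 4 events that were higher in KCl and 1 that was lower (21.2% and 19.5% of all events), and the median log2 odds ratio was 0.92, against 0.04 over all events tested. One of the 4 was Dnm1, the dynamin that cuts endocytic vesicles, with 99.5% and 97.0% in KCl and 92.5% and 95.7% in control. Syt1, the calcium sensor of release, had 98.6% and 100% in KCl and 97.1% and 99.0% in control, with overlap.

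Of 33 channel, receptor and pump genes, 3 had events, with 4 tested. Cacna1b, the pore of N-type calcium channels, had 11 of 11 and 44 of 46 inclusion reads in KCl and 66 of 84 and 127 of 146 in control at chr2:24678876-24679643. Its shares were 100% and 95.7% in KCl and 78.6% and 87.0% in control, and its log2 odds ratio was 2.36 (SE 1.13, adjusted p = 0.540, edgeR). Without replicate 2 of KCl, which leaves the library with 11 reads, it was 4.28. It was the only event of the list with an unadjusted p under 0.05, against 9.2% of all events, and the median of the list was -0.63. Of 34 adhesion and cytoskeleton genes, 10 had events and 12 were tested. Dbn1 alone had an unadjusted p under 0.05, again against 9.2% of all events, and the median was -0.23. Enah, which extends actin filaments, had 75.6% and 95.5% in KCl and 92.4% and 97.7% in control, so that only replicate 1 of KCl lay outside the range of control.

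Genes of the splicing machinery have alternative 3' splice sites of their own. For U2AF and the U2 snRNP 2 events were tested, for the list named for the second step of splicing 3, and for regulators of the choice 18. None had an unadjusted p under 0.05, against 9.2% of all events. Celf2, an RNA-binding regulator, had the smallest p of the regulators at chr2:6553785-6553982, with 20.2% and 40.8% in KCl and 50.5% and 50.3% in control. Its log2 odds ratio was -1.18 (SE 0.66, adjusted p = 0.627, edgeR), -0.56 without replicate 1 of KCl and -1.99 without replicate 2 of KCl. Its KCl libraries were further apart than the KCl mean was from control. Hnrnpk, an abundant binder of C-rich RNA, had 64.2% and 54.8% in KCl and 45.0% and 47.5% in control. Ptbp2, the neuronal form of polypyrimidine tract binding protein, had 13.9% and 15.8% in KCl and 11.7% and 13.5% in control at one exon and 51.9% and 46.5% in KCl and 52.3% and 45.5% in control at another. Sf3a2, of the U2 snRNP, had 9.38% and 5.36% in KCl and 8.47% and 3.49% in control, and Dhx16, a helicase, had 95.5% and 98.5% in KCl and 100% and 97.2% in control.

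The authors' deposited table holds a test of KCl against control within each replicate number. In replicate 1 it lists 18 alternative 3' splice sites with an FDR under 0.05 (1.32%, against 2.89% of all events). In replicate 2 the authors' deposited table lists 7 (0.512%, against 1.29%). All 7 were also under 0.05 in replicate 1, which is 38.9% of the first list and 100% of the second, and all had the same direction in both (background for both replicates 1.03%). Synj1, Gpm6b and Snap91 were higher in KCl, and Kif1b, Tpm1, Dbn1 and Dlgap4 were lower. For Synj1 the authors' deposited table gives an FDR of 3.35e-09 in replicate 1 and 3.58e-07 in replicate 2. For Dlgap4 the authors' deposited table gives 0.00402 and 0.00197. The 11 events listed in replicate 1 only, among them Enah, Hnrnpk, Chd3, Rufy2, Strn4 and Stx1a, had a share on the same side of control in replicate 2. These tests compare 1 library with 1 library, so they do not contain the spread between libraries of a group, and they use the counts described above.

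The level of an event, the sum of its inclusion and skipping reads, mixes transcript abundance with coverage of the event. At an adjusted p of 0.05, edgeR called 0 of the 1368 events, against 0.0% of all 11814, with a smallest adjusted p of 0.411, while DESeq2 called 7. At an unadjusted p under 0.05 edgeR gave 128 events (9.36%, against 10.9% of all events), 51 higher and 77 lower in KCl. Without replicate 2 of KCl 39 events were called, without replicate 2 of control 11, without replicate 1 of control 1 and without replicate 1 of KCl 0. The percentages of all events called by DESeq2 and without single libraries are not given, so those counts stand without a background. Events of the synaptic genes named above had lower levels in KCl, none past the adjusted threshold. Stx1a had 10.4 and 46.1 CPM in KCl and 126 and 134 CPM in control (log2 fold change -2.19, SE 0.69, adjusted p = 0.411, edgeR). Snap91 had 30.6 and 83.4 CPM in KCl and 237 and 202 CPM in control, and Synj1 had 26.6 and 46.1 CPM in KCl and 65.8 and 84.4 CPM in control. Mef2c had 8.56 and 66.9 CPM in KCl and 214 and 222 CPM in control (log2 fold change -2.53, SE 0.83, adjusted p = 0.411, edgeR). In Gpm6b the level was higher in KCl, with 5309.9 and 5347 CPM in KCl and 2389 and 3608 CPM in control. For Kif1b it was 85.6 and 181 CPM in KCl and 127 and 263 CPM in control, with overlap.

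Levels of the genes that recognise and choose 3' splice sites were taken from the event with the most reads in a gene, because no gene totals are listed. Of 51 such genes measured, edgeR called 0 at an adjusted p of 0.05, against 0.0% of all 6117 genes. At an unadjusted p under 0.05 there were 3, against 12.2% of all genes (4.94% higher and 7.31% lower in KCl), and all 3 were lower in KCl. For U2AF and the U2 snRNP, 10 of 27 genes were measured, with a median log2 fold change of 0.22, against 0.04 over all genes. The medians were 0.23 for 7 of 16 genes listed for the second step and 0.24 for 34 of 40 regulators. Uhmk1, a kinase that phosphorylates SF1, had 34.2 and 66.2 CPM in KCl and 150 and 192 CPM in control (log2 fold change -1.76, SE 0.49, adjusted p = 0.352, edgeR). U2af2, the large subunit of U2AF, had 253 and 192 CPM in KCl and 205 and 174 CPM in control. The U2AF subunits thus overlapped between the groups, and Uhmk1 did not.

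The list named for the second step also holds genes that act at other points of splicing, Dhx16 among them. In this list, Dhx16 had 30.1 and 37.9 CPM in KCl and 17.4 and 19.3 CPM in control (log2 fold change 0.89, SE 0.47, adjusted p = 0.497, edgeR). Slu7 had 32.9 and 21.5 CPM in KCl and 24.4 and 18.2 CPM in control. Syf2 had 173 and 89.99 CPM in KCl and 110 and 70.3 CPM in control. Of the regulators, Rbfox1 had 3.42 and 15.8 CPM in KCl and 45.3 and 29.0 CPM in control (log2 fold change -1.91, SE 0.73, adjusted p = 0.378, edgeR). Rbfox3, the antigen of the NeuN antibody and one of the 15 neuronal markers, had 25.3 and 111 CPM in KCl and 146 and 305 CPM in control. Khdrbs3, an RNA-binding protein known for neurexin splicing, had 266 and 301 CPM in KCl and 694 and 517 CPM in control (log2 fold change -1.09, SE 0.39, adjusted p = 0.358, edgeR). These 3 did not overlap between the groups. The value of Rbfox1 was -1.21 without replicate 1 of KCl. Without replicate 2 of KCl the log2 fold changes were -3.48 for Rbfox1, -3.22 for Rbfox3 and -2.38 for Uhmk1. Ptbp1, the form found in non-neuronal cells and progenitors, had 136 and 201 CPM in KCl and 68.2 and 112 CPM in control. Neuronal markers had a median log2 fold change of -1.80 (9 measured, 6 at an unadjusted p under 0.05), and the part of the marker levels in these values was not tested.

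**Figure D5:**
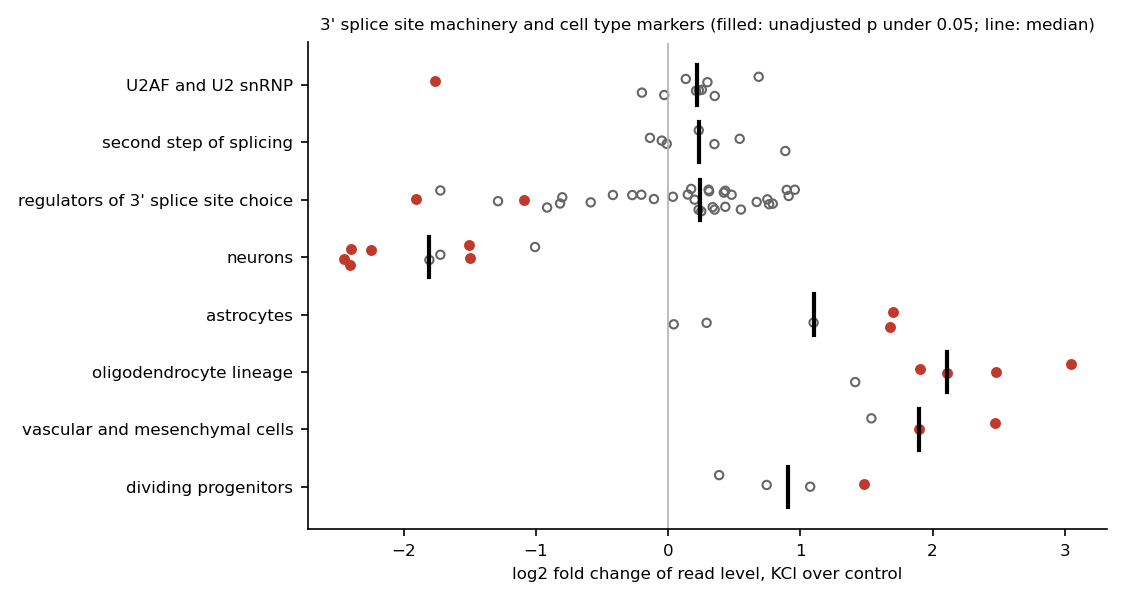
Log2 fold change of the read level, KCl over control (horizontal axis), of genes that recognise or choose 3' splice sites and of cell type markers, each point 1 gene read from its best covered event; filled points have an unadjusted p under 0.05 and the vertical bar is the median. The 3 lists of splicing genes have medians of 0.22, 0.23 and 0.24, neuronal markers lie at or below -1.01, and the oligodendrocyte and vascular markers lie above 1.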

How the data were processed

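RNA of 2 KCl and 2 control libraries was used; the chromatin libraries of the same series hold no splice site and were not used. Per the file headers, the authors deposited whole-number counts of inclusion reads and of skipping reads for each splicing event, with 1 listed exon per event. Beside them stand p-values and FDRs of the authors' own test, KCl against control, 1 per replicate number. The submitters' processing notes name TopHat2, MACS2, BWA 0.7.12, CASAVA 1.7 and mm10, with no role for any. Which event counter, annotation and strand setting was used is not given in the sources used here.

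Events whose coordinates occurred more than once in a table were left out: of 1741 and 1902 rows of alternative 3' splice sites in replicates 1 and 2, 1590 and 1727 were unique and 1368 were in both. Events averaging 1 or more reads in each form entered edgeR's quasi-likelihood test (edgeR 4.0.16, R 4.3.3) on inclusion and skipping counts, whose model had library terms, a form term and a term for the form in KCl. Of the 125 events not tested, 36 had under 1 inclusion read and 89 under 1 skipping read on average. Levels were tested with edgeR after TMM scaling, and CPM are counts scaled with these factors to a common library size over the events fitted. Event levels were scaled over 11814 events, and markers and machinery genes over the best covered events of 6117 genes. CPM of events and CPM of genes are therefore on different scales and cannot be set beside each other. Benjamini-Hochberg adjustment ran over all events or genes at 0.05. DESeq2 1.42.0, limma 3.58.1 with a pseudocount of 0.5, other filters and scalings, a replicate block and leaving out each library were alternatives. The fits were tested on simulated data. Figures used matplotlib 3.10.9, and tables used pandas 2.3.3, scipy 1.17.1 and numpy 2.4.6 in Python 3.11.15. Strand and place in the gene came from RefSeq genes of GRCm38.p6, the build mm10, for 1168 and 1153 events. Wilson intervals are at 95%, and the limit for a count of 0 is 3 counts of the total.

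Named were, among events with no overlap between the groups, the 10 per direction of lowest p, the 5 with the most reads, the leading event of each list with a tested one, the 3 leading genes of each machinery list, and the 3 events with a readable sequence. Other events and genes in the text were chosen after their values were seen. The members and the lists were chosen with earlier results of these data known. An item that the rule names is not reported here.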

Additional observations from a re-analysis of the deposited data

How the results depend on the processing

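No inclusion call was made by edgeR, DESeq2 or limma in any setting run but one. With the replicate number as a block, 9 alternative 3' splice sites passed (Synj1, Gpm6b, Stx1a and Snap91 higher in KCl, Kif1b, Tpm1, Dbn1, Rufy2 and Strn4 lower), against 1.66% of all events. What same-numbered libraries share is not in the labels. Deviations of same-numbered libraries correlated at 0.06 for inclusion and 0.64 for level, with only 2 pairs. For the counts of calls and of unadjusted p that follow, the percentages over all events or genes are not given. For event levels the block gave 123 calls, DESeq2 7, and leaving out single libraries 0 to 39. For machinery genes the block gave 9 calls, and leaving out libraries 0 to 4, the 4 without replicate 2 of KCl. Of the 1243 events tested, those at an unadjusted p under 0.05 were 29 with DESeq2, 71 with limma and 43 with the replicate block. With a mean of at least 5 reads of each form there were 27 of 688. With at least 1 read of each form over the libraries there were 53 of 1368. With events of equal coordinates summed (added after seeing the data) there were 49 of 1329. Of 208 values of 24 named events under alternatives, 195 kept direction and side of the threshold, 9 became calls and 4 reversed. The reversed values were Dhx16 at 0.093 and 0.26 without replicate 1 of control and of KCl (-2.72 to 0.26 without single libraries), and Sf3a2 at -0.29 and -0.086 without replicate 2 of control and replicate 1 of KCl (-0.29 to 1.03). The level of Sf3a2 was -0.064 without replicate 2 of KCl (-0.064 to 0.55). The difference of library medians was -2.39 to 0.024 points without single libraries, positive without replicate 1 of control. The cause of these changes was not tested, and few reads of one form limit many shares.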
